A study of Mus musculus with 6 samples.

Results

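The cells described here are the 1121 cells that the authors assigned to a spinal cord class in elongated mouse neural tube organoids, out of 11981 cells in the table that holds them and 16282 cells in the series. They were chosen by the authors' deposited class name alone, and they make up the whole of 1 of the authors' 17 clusters. Neural tube organoids are neuroepithelial structures, grown here from mouse embryonic stem cells that carry a Sox1::eGFP and a Bra::mCherry reporter. The cells were embedded in Matrigel, given basic fibroblast growth factor and activin-A over the first 3 days and kept in N2B27 medium without them afterwards. Organoids cultured past day 6 were moved to new Matrigel, each in a drop of its own. The table holds 4 libraries of elongated organoids, 1 each at day 6 (batch 2 of that day in the labels, called replicate 2 below), day 7, day 8 and day 10. All share the reporter line and the culture protocol, and the labels state 100 organoids per condition, so each library is a pool. Because each day is 1 library, day and library cannot be told apart, and a comparison of 2 days has no replicate check. The other deposited table holds day 6 elongated batch 1 and a day 6 library of non-elongated organoids. Both are set beside the class near the end of these results.

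The spinal cord is the part of the neural tube behind the hindbrain. Position along the head to tail axis is marked there by Hox transcription factors, which lie in clusters and are numbered as paralogue groups, so that low groups begin in the hindbrain and higher groups begin further back. Retinoic acid, fibroblast growth factors, Wnt signals and the Cdx factors act on Hox genes as cells leave the caudal progenitor pool. Along the back to belly axis other factors tell progenitors apart, with Pax3 and Msx genes dorsal and Nkx6-1 and Olig2 ventral.

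The class held 131, 86, 676 and 228 cells at days 6, 7, 8 and 10. This was 5.45% (4.58 to 6.44) of the library at day 6, with the exact binomial 95% interval in brackets, 3.35% (2.69 to 4.12) at day 7, 20.3% (18.9 to 21.7) at day 8 and 6.20% (5.44 to 7.03) at day 10. Day 8 stood apart as the library with the most spinal cord cells, and its interval overlapped none of the others. As a share of spinal cord and mid/hindbrain cells together, the values were 5.69%, 3.92%, 27.9% and 18.1%. The mid/hindbrain class, which spans 6 clusters and serves as the comparison throughout, held 2173, 2108, 1746 and 1035 cells in the same order. The intervals cover counting error only and not the spread between pools of organoids.

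**Figure D1:**
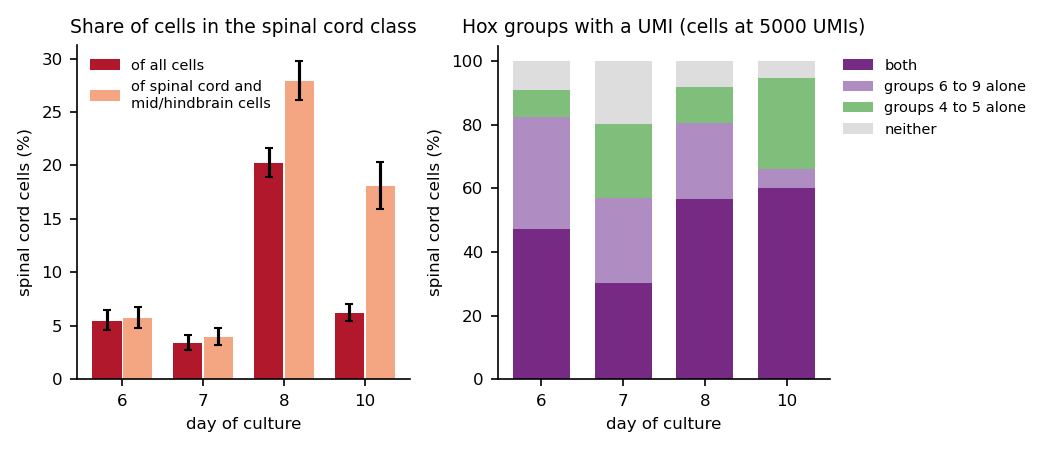
Left, the share of cells in the spinal cord class (y axis, percent) by day of culture (x axis), over all cells of the library and over spinal cord and mid/hindbrain cells, with exact 95% intervals. Right, the share of spinal cord cells with a UMI of Hox groups 4 to 5, of groups 6 to 9, of both or of neither after each cell was thinned to 5000 UMIs; at day 10 groups 6 to 9 alone take up 6.14%.

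The unique molecular identifiers (UMIs, counts of captured RNA molecules) summed over the spinal cord cells came to 7526196, 4598696, 22369783 and 5872068 at days 6, 7, 8 and 10. The median depth per cell was 56285, 49937, 30339.5 and 23243 UMIs in the same order, and 59102, 48738, 34760 and 25975 UMIs in mid/hindbrain cells. Levels below are counts per 1000000 UMIs of the class in a library (CPM). Shares of cells with a UMI were taken after each cell was thinned to 5000 UMIs, which removed 0 cells. Across the table, 14 cell barcodes occurred in more than 1 library, and 3 spinal cord cells carried such a barcode.

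The class was set beside the marker genes Hoxb7, Hoxc6, Hoxb9 and Hoxa7, which are Hox genes of groups 6 to 9. At 5000 UMIs, 64.9% (56.1 to 73.02) of the spinal cord cells at day 6 had a UMI of at least 1 of the 4. The share was 43.02% (32.4 to 54.2) at day 7, 68.3% (64.7 to 71.8) at day 8 and 50.4% (43.8 to 57.1) at day 10. In mid/hindbrain cells, which should lack these genes, the shares were 1.84%, 0.142%, 1.72% and 1.84%. Without thinning, 98.5%, 77.9%, 86.7% and 65.4% of the spinal cord cells and 9.16%, 1.23%, 6.70% and 4.93% of the mid/hindbrain cells had a UMI of a marker. The share with a marker UMI was therefore higher in the spinal cord class on every day, and at equal depth lowest there at day 7. Since the classes were made from the same expression values, these shares cannot check the class. They and every contrast of spinal cord with mid/hindbrain below are a description and carry no test.

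Hox genes of groups 6 to 9 led the difference between the classes. Hoxb9 measured 273, 100.0, 176 and 104 CPM at days 6, 7, 8 and 10, against 2.28, 0.509, 2.58 and 0.896 CPM in mid/hindbrain cells. The ratio between the classes was 119.7-fold, 196-fold, 68.3-fold and 116-fold. All spinal cord values lay far above all mid/hindbrain values, and among the spinal cord values day 6 was the highest. Hoxb8 kept a narrower range, at 114, 87.6, 126 and 112 CPM, against 3.45, 0.827, 4.49 and 9.23 in mid/hindbrain. Hoxb7 was lowest at day 6, at 26.6, 60.02, 103 and 97.6 CPM over the days. Its mid/hindbrain levels did not exceed 2.93 CPM. The 3 genes are neighbours in the Hoxb cluster, where the GENCODE M21 annotation of GRCm38 places Hoxb9 at chr11:96271457-96276595, Hoxb8 at chr11:96281905-96285315 and Hoxb7 at chr11:96286623-96290162, all on the plus strand.

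Several genes of the Hoxa and Hoxc clusters were lowest at day 7. Hoxc6 measured 29.1, 13.5, 43.6 and 43.9 CPM over the days, and 0.674 CPM at most in mid/hindbrain. Hoxa7 measured 34.5, 10.4, 53.1 and 29.5 CPM, with 0.989 CPM as its highest mid/hindbrain level. Hoxc8 measured 39.5, 1.52, 41.3 and 27.1 CPM, where the day 7 value stands on 7 UMIs. In these 3 genes the day 7 library was below the other 3 libraries. Hoxc9 measured 5.58, 0, 4.96 and 0.170 CPM and Hoxa9 2.92, 0, 3.53 and 1.53 CPM. Both were listed at 0 at day 7, where 86 cells stand behind the values and 3 UMIs amount to 0.652 CPM. Hoxb6 ran from 15.1 to 38.3 CPM, while Hoxa6 reached 2.38 and Hoxd8 2.90 CPM at most.

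Of the 12 listed genes of groups 6 to 9, 11 were in the table and 7 had at least 5 CPM in the mean of either class. These 7 were at least 2-fold above mid/hindbrain in all 4 libraries, a size reached by 0.326% of the 9513 genes compared (31 genes, on log2 values with 1 CPM added), while 0.0736% (7 genes) were at least 2-fold below. The 7 met the minimum through the spinal cord class, where they are high, so their count supports nothing. Of the 12 listed genes of groups 10 to 13, Hoxa13, Hoxc13 and Hoxd13 were in the table, and none of these 3 had a UMI in a spinal cord cell. The other 9 of these 12 genes were not analysed here. Of the 3 genes of group 9 described above, Hoxb9 alone had UMIs at day 7.

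The sequence before the start of Hoxb8 is shown because this gene held a similar level on all days while Cdx2, a caudal homeobox factor that acts on Hox genes, had UMIs in the class at day 6 only. RefSeq places the 250 bases before the start at chr11:96281655-96281904 on the plus strand of GRCm38.p6. Capitals mark the hexamer TTTATG, a motif of Cdx factors, searched on both strands.
Hoxb8: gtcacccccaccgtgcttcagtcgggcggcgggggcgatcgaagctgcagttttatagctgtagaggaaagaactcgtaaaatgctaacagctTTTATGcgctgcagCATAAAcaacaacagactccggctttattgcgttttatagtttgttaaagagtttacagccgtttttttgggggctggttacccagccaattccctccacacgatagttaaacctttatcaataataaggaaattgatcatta

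The hexamer occurred 2 times, beginning 157 and 143 bases before the start, once on each strand. It was found in 10.8% of the 32851 RefSeq promoter windows of 250 bases, and in 4 of the 16 windows of listed Hox genes, 29 of which were in the table. A match describes these letters and is not a binding site measured here.

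Groups 4 and 5, which begin near the border of hindbrain and spinal cord, were above mid/hindbrain on every day and highest at day 10 in both classes. Hoxc4 measured 28.8, 31.7, 52.2 and 104 CPM in the spinal cord class, and 0.750, 0.436, 2.41 and 31.6 CPM in mid/hindbrain. Hoxa5 measured 10.6, 31.97, 29.5 and 88.2 CPM, against 1.71, 0.900, 1.53 and 20.7 CPM. Hoxb4 measured 53.01, 34.6, 51.4 and 90.8 CPM, against 3.07, 0.882, 3.83 and 24.4. For Hoxc4 and Hoxa5 the mid/hindbrain value at day 10 lay above the spinal cord value at day 6, whereas for Hoxb4 all mid/hindbrain values lay below all spinal cord values. The 7 listed genes were all at least 2-fold above mid/hindbrain in all 4 libraries, beside 0.326% of all genes compared, and Hoxb5 and Hoxc5 met the level minimum through the spinal cord class alone. Their median log2 ratio was 3.32, 4.12, 3.57 and 1.86 over the days, while over all genes compared it lay between -0.03 and 0.03. For the 7 genes of groups 6 to 9 that met the level minimum the medians were 4.70, 4.59, 4.76 and 4.66. These genes met it through the spinal cord class, where they are high, so the size of their medians supports nothing.

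**Figure D2:**
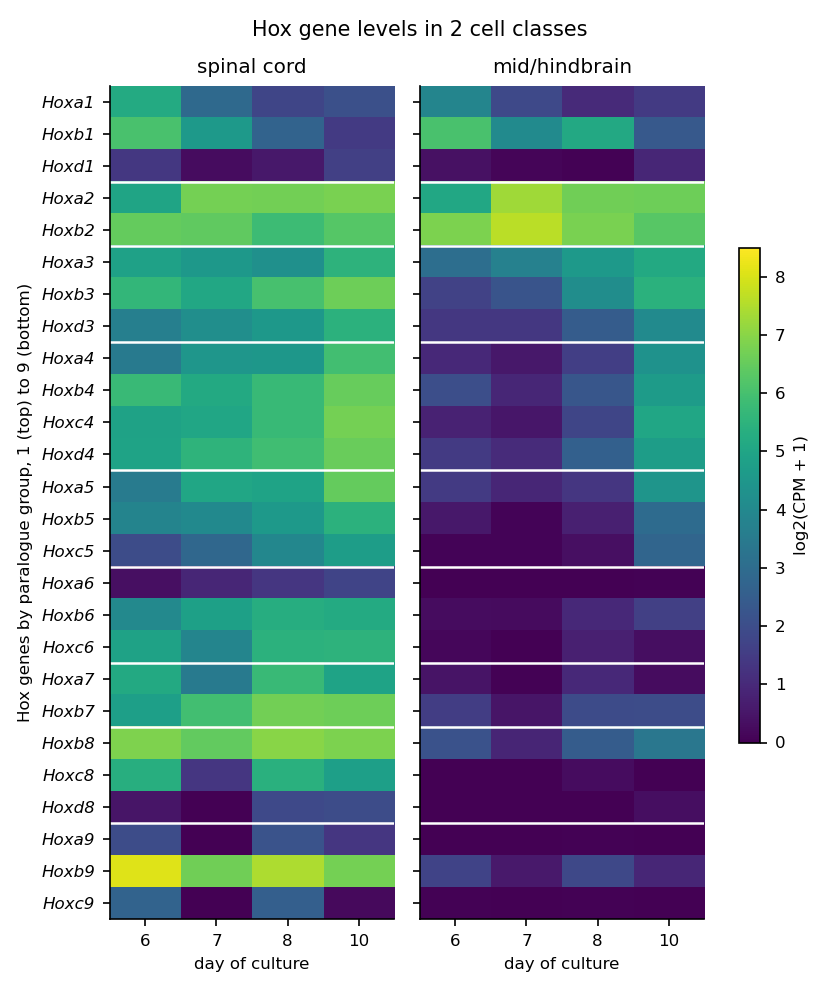
Level of each Hox gene of groups 1 to 9 as log2(CPM + 1) (colour) by day of culture (x axis) in the spinal cord class and in the mid/hindbrain class, ordered by paralogue group from top to bottom with white lines between groups. Of groups 6 to 9, Hoxa6, Hoxa9, Hoxc9 and Hoxd8 stay under 10 CPM in the spinal cord class and the other 7 pass it there and not in mid/hindbrain, where Hoxb8 is highest at 9.23 CPM, while groups 4 and 5 also appear in mid/hindbrain cells at day 10.

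Over the days, 0 of the 7 genes of groups 4 and 5 passed the adjusted threshold for a slope by edgeR's quasi-likelihood test (described with the day results further on), and 6 had an unadjusted p under 0.05 with a positive slope, against 13% of all genes tested. The adjusted p was 0.0554 for Hoxd4, 0.0571 for Hoxc4, 0.0636 for Hoxa5 and 0.259 for Hoxb4 (edgeR).

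Groups 1 to 3 differed less between the classes. Hoxa2 measured 30.2, 105, 102 and 108 CPM in the spinal cord class and 33.5, 154, 99.4 and 98.5 CPM in mid/hindbrain, with neither class higher throughout. Hoxb2 was lower in the spinal cord class on every day, with 89.6, 84.4, 56.2 and 74.9 against 112, 195, 110.2 and 77.4 CPM. Hoxb3 measured 48.2, 33.3, 63.7 and 98.6 against 2.18, 3.62, 17.2 and 42.5 CPM, so that the classes were further apart at day 6 than at day 10. Hoxb3 and Hoxd3 were the 2 of the 8 listed genes that were at least 2-fold above mid/hindbrain in all 4 libraries, beside 0.326% of all genes compared. Hoxb1 fell over the days in the spinal cord class, with 64.97, 22.8, 5.59 and 1.70 CPM and a slope of -1.49 ± 0.14 (SE) log2 units per day (adjusted p = 0.0398, edgeR's quasi-likelihood test with Benjamini-Hochberg adjustment over all genes). Mid/hindbrain cells held 66.01, 15.95, 33.9 and 4.20 CPM of it. Its adjusted p was 0.0999 without day 6 and 0.111 without day 7 (edgeR).

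Non-coding transcripts of the Hox loci were also above mid/hindbrain. Hoxb5os measured 209.9, 40.01, 49.9 and 42.9 CPM against 0.779 CPM at most in mid/hindbrain. Hoxaas3 measured 284, 23.1, 23.2 and 43.4 CPM against 5.52, 0.773, 2.29 and 7.23. Both were highest at day 6, as was Hoxb9. Hoxd3os1, Haglr and Hotairm1, named after their values were seen, were the others at least 2-fold above mid/hindbrain in all 4 libraries. Together with 16 coding genes, Hox loci gave 21 of the 31 genes above. Of the 29 listed Hox genes, 6 share exon bases on the same strand with another annotated gene, among them Hoxd3 with Hoxd4, and 9 overlap an exon on the opposite strand. Whether the counting used strand is not given in the sources used here, so the values of such genes are uncertain.

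Within the class, cells differed in which Hox groups had a UMI, and the split depended on depth. Groups 4 to 5 had 7 genes in the table and groups 6 to 9 had 11. At 5000 UMIs per cell, 47.3%, 30.2%, 56.7% and 60.1% of the cells had UMIs of both groups 4 to 5 and groups 6 to 9 over the days. Groups 6 to 9 alone were seen in 35.1%, 26.7%, 23.96% and 6.14%, and groups 4 to 5 alone in 8.40%, 23.3%, 11.4% and 28.5%. Neither was seen in 9.16%, 19.8%, 7.99% and 5.26% of the cells, against 93.6%, 98.3%, 92.3% and 74.98% in mid/hindbrain. At equal depth, groups 4 to 5 alone were more frequent than groups 6 to 9 alone at day 10, with 28.5% (22.7 to 34.8) against 6.14% (3.40 to 10.1), and less frequent at days 6 and 8. Without thinning, both were seen in 99.2%, 84.9%, 90.2% and 79.8%, groups 4 to 5 alone in 0%, 12.8%, 8.73% and 18.9% and groups 6 to 9 alone in 0.763%, 1.16%, 0.888% and 0%. At full depth, then, nearly all day 6 cells showed both, and cells with groups 4 to 5 alone outnumbered those with groups 6 to 9 alone at days 7, 8 and 10.

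Outside the Hox loci, 10 genes were at least 2-fold above mid/hindbrain in all 4 libraries: Aldh1a2, Rarb, Rmst, Fndc5, Prdm8, Prdm13, Chl1, Scube2, Fam181b and Nrp2. Aldh1a2, Rarb, Prdm8 and Prdm13 were on a list, and the other 6 are named after their values were seen. Rmst, a long non-coding RNA of neural cells, measured 3.06, 21.3, 29.3 and 72.2 CPM against 0.937, 0.427, 1.36 and 5.17. Prdm13, a regulator of dorsal inhibitory neurons, measured 3.06, 23.9, 25.6 and 27.1 CPM against 0.267, 0.364, 3.999 and 7.51. Prdm8 measured 14.2, 6.96, 5.95 and 7.49 CPM and did not pass 1.42 CPM in mid/hindbrain. Scube2, which takes part in hedgehog release, measured 25.9, 36.3, 36.8 and 13.6 CPM against 3.16, 6.53, 12.2 and 4.75. Rmst was highest at day 10, Prdm8 at day 6, and Prdm13 was low at day 6 and similar on the later days.

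**Figure D3:**
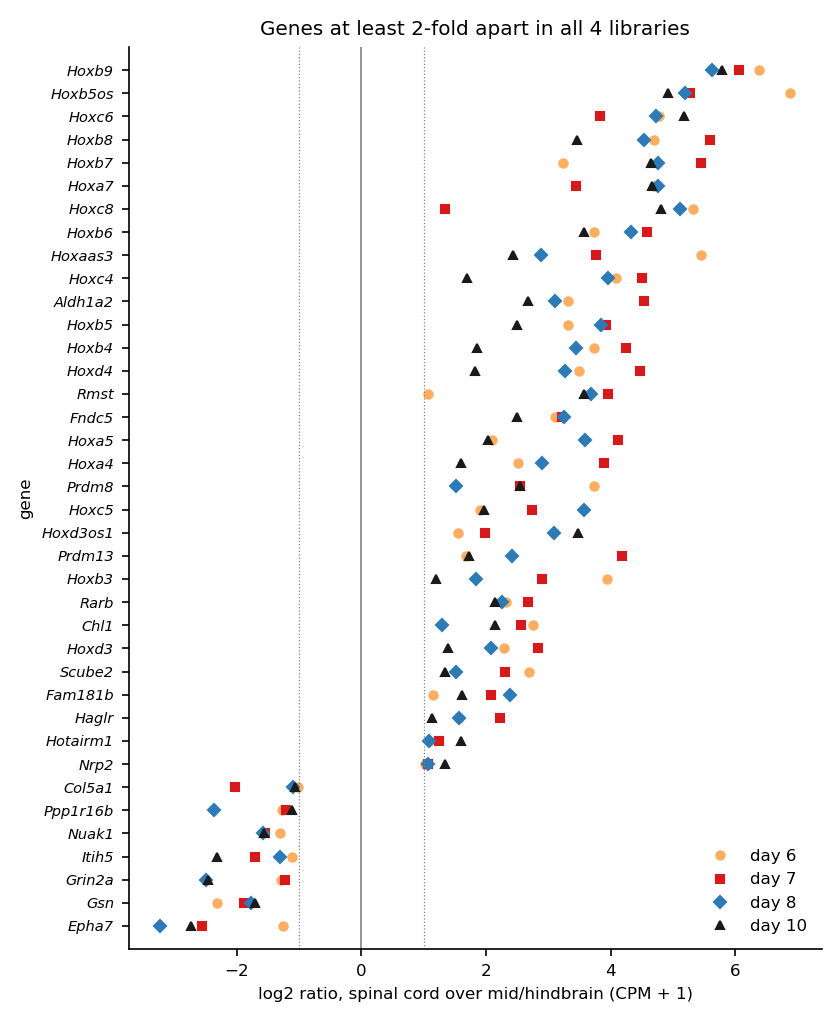
Log2 ratio of spinal cord over mid/hindbrain in CPM + 1 (x axis) for the 31 genes at least 2-fold above and the 7 at least 2-fold below in all 4 libraries (y axis, ordered by mean ratio), with 1 symbol for each day; dotted lines mark 2-fold. Hoxb9 and Hoxb5os head the order, Hoxc8 has its day 7 value far below its other values, and Epha7 has the lowest mean ratio.

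On the lower side stood 7 genes. Epha7, a receptor for ephrins that takes part in sorting of cells and axons, measured 6.24, 31.1, 20.3 and 24.2 CPM in the spinal cord class and 16.4, 189, 199.7 and 167 CPM in mid/hindbrain. It was lower by 2.63-fold, 6.07-fold, 9.82-fold and 6.91-fold over the days. Nuak1, a kinase, measured 10.5, 19.6, 17.2 and 7.32 CPM against 27.6, 59.5, 53.2 and 23.8. The other 5 were Gsn, Grin2a, Itih5, Ppp1r16b and Col5a1, all under 20 CPM and named after their values were seen. At 1.5-fold the counts were 50 above and 48 below, and at 4-fold they were 13 and 0. Without the day 6 library 51 genes were above and 35 below, and without day 7 and without day 10 the counts below were 15 and 14.

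Retinoic acid genes were found on both sides. Aldh1a2, the main enzyme that makes retinoic acid in the early embryo, measured 26.2, 33.1, 11.3 and 8.004 CPM in the spinal cord class and 1.72, 0.464, 0.434 and 0.413 in mid/hindbrain. At 5000 UMIs, 9.92%, 15.1%, 4.14% and 2.63% of the spinal cord cells had a UMI of it, against 0.782%, 0.190%, 0.172% and 0.193% of the mid/hindbrain cells. Rarb, a retinoic acid receptor whose own gene responds to the ligand, measured 17.3, 15, 20.3 and 66.4 CPM against 2.67, 1.51, 3.49 and 14.2, and was highest at day 10 in both classes. Crabp1, a binding protein of retinoic acid, was lower in the spinal cord class in every library, with 1050.1, 1786, 275 and 224 CPM against 3387, 3564, 2419 and 579. Cyp26b1, an enzyme that breaks retinoic acid down, measured 0.531, 0.870, 0.358 and 3.75 CPM against 1.28, 11.6, 21.1 and 31.4. Of the 17 listed genes, all in the table, 10 met the level minimum, and Aldh1a2 and Rarb were the 2 above in all 4 libraries, beside 0.326% of all genes compared. Aldh1a2 met that minimum through the spinal cord class alone, where it is high, so its part in this count supports nothing. None of the 9 tested over the days passed the adjusted threshold, with an adjusted p of 0.0789 for Rarb and 0.0911 for Aldh1a2 (edgeR). Of these 9, 3 had an unadjusted p under 0.05 with a positive slope and 4 with a negative slope, against 13% and 14.3% of all genes tested.

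The sequence before the start of Rarb is shown because this gene was above mid/hindbrain in every library and is a standard example of a gene with a retinoic acid response element. RefSeq places the 250 bases at chr14:16575477-16575726 on the minus strand of GRCm38.p6. The GENCODE M21 annotation places the whole gene at chr14:16430839-16819156, so this start lies inside it and is not its outermost start. Which start gave the counted RNA was not tested. Capitals mark a match to the DR5 retinoic acid response element, a direct repeat with a spacer, searched on both strands.
Rarb: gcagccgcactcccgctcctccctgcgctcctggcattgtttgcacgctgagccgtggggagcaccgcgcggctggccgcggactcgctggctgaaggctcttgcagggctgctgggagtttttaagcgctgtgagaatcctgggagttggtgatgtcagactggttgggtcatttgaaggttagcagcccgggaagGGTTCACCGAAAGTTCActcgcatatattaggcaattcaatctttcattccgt

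The match begins 53 bases before the start. DR5 was found in 29 of the 32851 windows, 0.0883%, and in 0 of the 16 windows of listed Hox genes. Neither printed window held a match to the other motif.

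**Figure D4:**
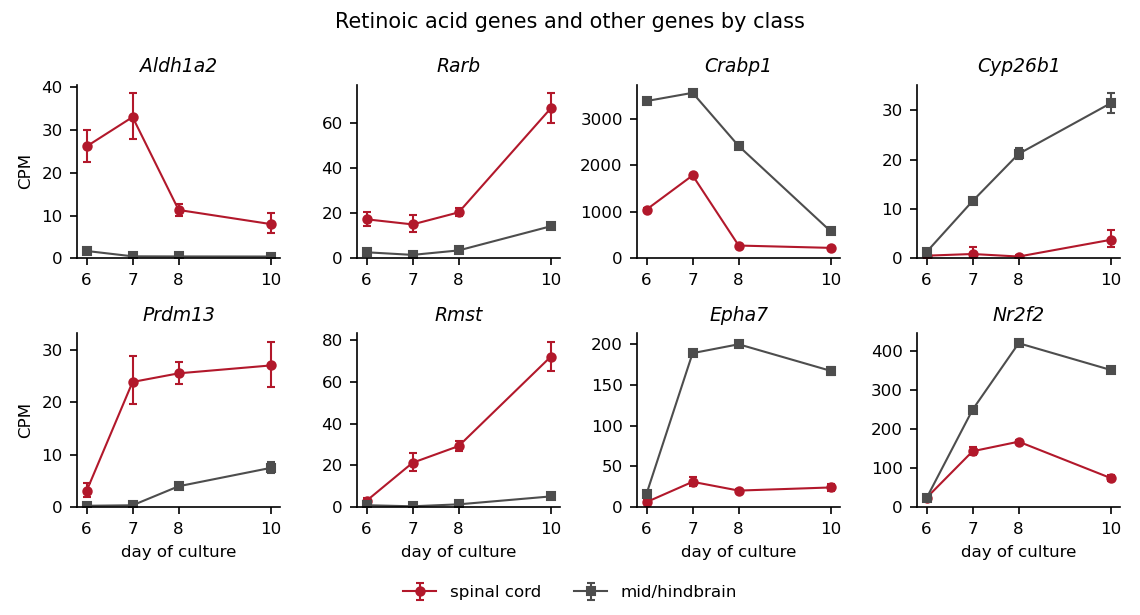
CPM (y axis) by day of culture (x axis) of 8 genes in the spinal cord class (red) and in mid/hindbrain (grey), with bars for the exact Poisson 95% interval of the count. Aldh1a2, Rarb, Prdm13 and Rmst lie above mid/hindbrain in all 4 libraries, Crabp1, Cyp26b1 and Epha7 lie below, and Nr2f2 is level at day 6 and lower later.

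Some genes of the caudal progenitor pool, Cdx2, Nkx1-2 and Wnt8a among them, were present at day 6 and at or near 0 after it, while others were not. The 17 listed genes in the table summed to 164, 48.1, 43.6 and 55.9 CPM over the days. Cdx2 measured 22.2, 0, 0 and 0 CPM, and 4.17, 0, 0 and 0 in mid/hindbrain. Nkx1-2, a marker of the caudal epiblast, measured 19, 0.435, 0 and 0.170 CPM. Wnt8a measured 24.2, 0, 0.224 and 0 CPM and was higher in mid/hindbrain at day 6, with 66.01 CPM. At day 6, 12.2% of the thinned spinal cord cells had a UMI of Cdx2 and 6.11% of Nkx1-2, against 1.89% and 2.76% of mid/hindbrain cells. On the later days no thinned spinal cord cell had a UMI of either, which at day 7 allows a share of up to 3.49%. Of the 18 listed genes, 17 were in the table and 6 had counts enough to be tested over the days, without Cdx2, Nkx1-2 and Wnt8a. None of the 6 passed the adjusted threshold by edgeR, and 1 had an unadjusted p under 0.05. Day 10 was set against day 6 for the 6 listed genes with a mean of at least 5 CPM in the spinal cord class. That is a different set, which includes Cdx2 and Wnt8a. Of its genes, 3 were at least 2-fold lower at day 10 than at day 6, beside 4.81% of the 9222 genes compared. Cdx2 and Wnt8a met that mean through day 6 alone, where they are high, so their part in this count supports nothing. Sp8 measured 37.5, 8.70, 9.88 and 0 CPM (adjusted p = 0.0767, edgeR), while Wnt5a was high at both ends, with 16.5, 4.13, 4.07 and 22.99 CPM.

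Over the days, a straight line in log2 expression was tested for 11528 genes, with 2 residual degrees of freedom. At an adjusted p under 0.05 by edgeR, 32 genes were called (0.278%), of which 14 rose (0.121%) and 18 fell (0.156%), and 3137 had an unadjusted p under 0.05 (27.2%). Nfib, a nuclear factor I gene of the switch towards gliogenesis, measured 0, 0.652, 3.58 and 136 CPM (slope 2.62 ± 0.10 SE log2 per day, adjusted p = 0.00372, edgeR). Bcl11a, a zinc finger factor of neural cells, measured 0.133, 0.217, 3.76 and 132 CPM (slope 2.60 ± 0.10, adjusted p = 0.00372, edgeR). Both were near 0 in the first 2 libraries and high in the last, and at day 10 50% and 46.5% of the thinned spinal cord cells had a UMI of them. Mir9-3hg, the host of a neural microRNA, rose as well, with 0.266, 0.217, 3.93 and 87.9 CPM. Zbtb18, a repressor in neuronal differentiation, measured 6.24, 14.6, 25.5 and 73.7 CPM, and its adjusted p was 0.0335, and 0.0947 without day 7 (edgeR). Slc1a2, a glutamate transporter of glia, measured 3.19, 5.22, 13.01 and 49.05 CPM. These 2 genes were higher in each later library. Aplp1, Kcnq3, Camk2n1, Gm29478 and Gm3764 also rose.

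The falling genes included regulators of early embryonic cells. Lin28a, an RNA-binding protein that holds back maturation, measured 143, 87.9, 12.5 and 0.851 CPM (slope -1.91 ± 0.20 SE, adjusted p = 0.0499, edgeR). That adjusted p lies at the threshold and was 0.0563 with scaling by library size alone. Sall4, a factor of pluripotent and early embryonic cells, measured 86.5, 31.7, 12.9 and 1.02 CPM. Prtg, a receptor of early neuroepithelium, measured 476, 375, 108 and 12.1 CPM, and Hes3, a repressor of early neuroepithelial cells, 122, 20.4, 5.50 and 1.19 CPM. All of these were lower in each later library. Ifitm1, Ifitm3, Gfra3, F11r and Car2 fell as well, with Ifitm1 at 233, 17.8, 1.79 and 0.511 CPM. The 32 called genes each had a slope of the same sign in mid/hindbrain cells, which come from the same libraries, where the same fit called 0 genes. Without day 7 the fit called 7 genes and without day 6 it called 22, while it called 302 without day 8 and 769 without day 10. DESeq2 called 1150.

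**Figure D5:**
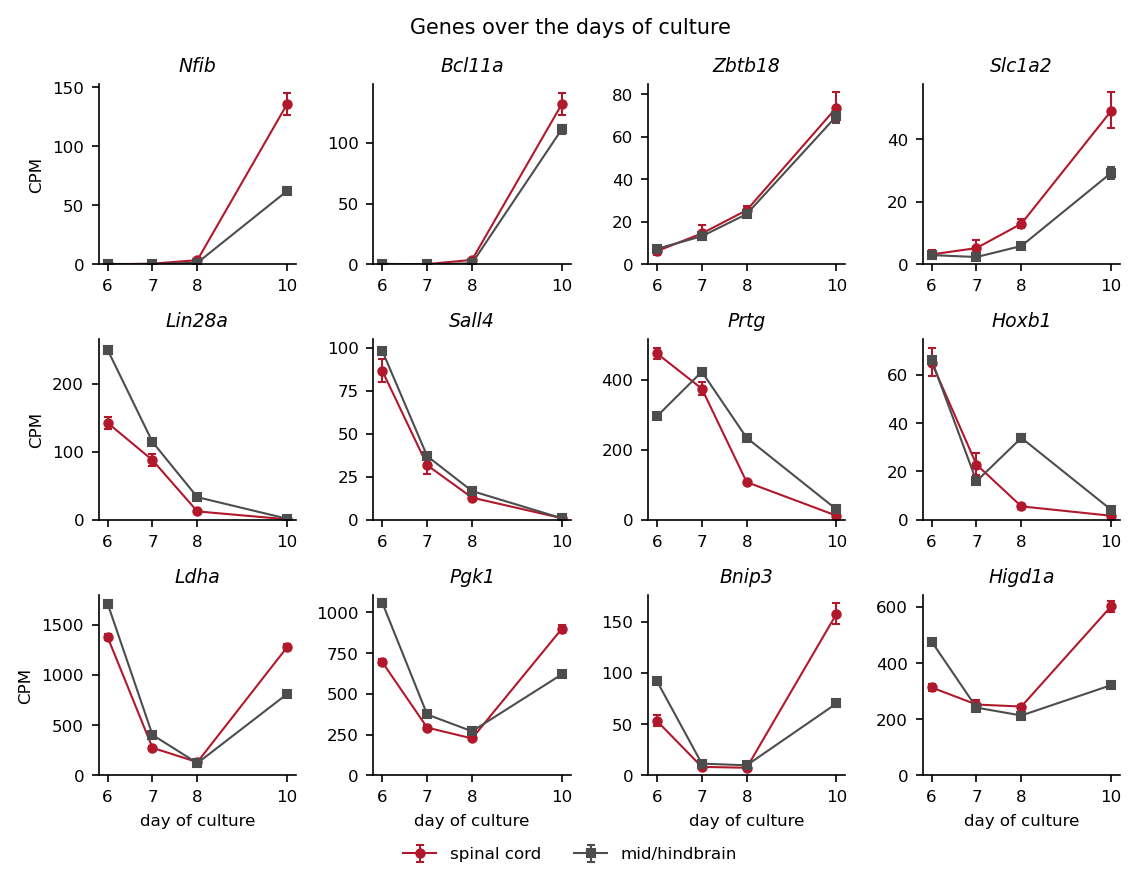
CPM (y axis) by day of culture (x axis) of 12 genes in the spinal cord class (red) and in mid/hindbrain (grey), with bars for the exact Poisson 95% interval of the count. The first row holds genes that rose, the middle row genes that fell, and the last row genes named for glycolysis, hypoxia or the slope difference, which were higher at days 6 and 10 than at day 8 in both classes.

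Neuronal genes were higher at day 10. Of the 19 listed neuron genes, 14 met the level minimum and 10 of those were at least 2-fold higher at day 10 than at day 6 and 1 was at least 2-fold lower, while 11.3% of the 9222 genes compared were that much higher and 4.81% that much lower. None of the 18 tested over the days passed the adjusted threshold (edgeR), and 13 had an unadjusted p under 0.05 with a positive slope, against 13% of all genes. Tubb3, a tubulin of neurons, measured 11.3, 27.8, 71.97 and 131 CPM (adjusted p = 0.0629, edgeR), and 4.58%, 15.1%, 24.3% and 35.1% of the thinned cells had a UMI of it. Dcx, a microtubule protein of newborn neurons, measured 0, 0, 2.73 and 17.9 CPM, and Nhlh2 0, 0, 2.91 and 17.7 CPM. Both reached a mean of 5 CPM through day 10 alone, where they are high. Any part of theirs in the count of 10 genes higher at day 10 supports nothing. At day 10, 4.39% (2.12 to 7.92) of the thinned spinal cord cells and 4.25% of mid/hindbrain cells had a UMI of Dcx. At days 6 and 7 no spinal cord cell had one, where a count of 0 allows shares of cells with a UMI of up to 2.29% and 3.49%. Mki67, a gene of dividing cells, had a UMI in 33.6%, 48.8%, 56.2% and 44.7% of the thinned cells.

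Progenitor genes were widely detected. Sox2, which maintains neural progenitors, measured 171, 326, 379 and 423 CPM and had a UMI in 50.4%, 70.9%, 80.6% and 85.1% of the thinned cells. Vim measured 83.2, 716, 1668 and 2084 CPM, and Fabp7, a radial glia gene, 44.9, 487, 1027 and 1897 CPM. These 3 were higher in each later library, with an adjusted p of 0.147, 0.156 and 0.113 (edgeR). All 14 listed progenitor genes met the level minimum, 0 of them were at least 2-fold from mid/hindbrain in all 4 libraries, 7 were at least 2-fold higher at day 10 than at day 6 and 1 was at least 2-fold lower, beside 11.3% and 4.81% of all genes compared. Among the 12 gliogenic genes, 10 were tested and Nfib was the 1 that rose, beside 0.121% of all genes tested. Nfia measured 2.39, 0.870, 8.90 and 107 CPM (adjusted p = 0.0554, edgeR) and Sox9 13.2, 56.8, 94.9 and 296 CPM (adjusted p = 0.0552). Of the 9 heterochronic genes, which time early development, Lin28a was the 1 that fell (0.156% of all genes tested), 8 had an unadjusted p under 0.05 with a negative slope, against 14.3% of all genes, and 7 were at least 2-fold lower at day 10 than at day 6, beside 4.81%.

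Dorsal progenitor genes were strong from day 7 on. Pax3 measured 34.8, 157, 229 and 262 CPM and had a UMI in 19.8%, 51.2%, 63.5% and 74.1% of the thinned cells. Msx3 measured 15.1, 209, 224 and 283 CPM, and Zic1, a zinc finger factor of the dorsal neural tube, 3.32, 216, 239 and 416 CPM. All 3 were lowest at day 6, in mid/hindbrain as well. Of the 19 listed dorsal progenitor genes, 13 of the 16 compared were at least 2-fold higher at day 10 than at day 6 and 1 was at least 2-fold lower, beside 11.3% and 4.81% of all genes, and 0 of 18 passed the adjusted threshold for a slope (edgeR). Gsx2, a factor of dorsal progenitors, measured 0, 2.17, 3.26 and 21.6 CPM against 2.76 CPM at most in mid/hindbrain (adjusted p = 0.0636, edgeR). It reached a mean of 5 CPM through day 10 alone, where it is high, so any part of it in the count of 13 supports nothing. The 19 genes summed to 240.5, 1151, 1156 and 1676 CPM. Of the 15 listed ventral and intermediate progenitor genes, 13 were in the table and summed to 217, 319, 368 and 160.1 CPM, of which Irx3 gave 111, 153, 142 and 59.3 and Irx5 60.99, 158, 209 and 92.98 CPM. Of the 4 that met the level minimum, Prdm8 was the 1 above mid/hindbrain in all 4 libraries (0.326% of all genes compared), and 0 of the 4 tested over the days were called (edgeR), with 0 at an unadjusted p under 0.05. Prdm8 met that minimum through the spinal cord class alone, where it is high, so its place above supports nothing. Nkx6-1 measured 8.37, 0, 0.760 and 0 CPM, and Olig2 had a UMI in 1 of 131 thinned cells at day 6 and 1 of 676 at day 8. Dbx1, of progenitors midway along that axis, measured 19.7, 0.217, 9.39 and 0 CPM against 0.519, 1.55, 1.06 and 0.

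Whether the slope over days differed between spinal cord and mid/hindbrain was tested for 14559 genes with the library as a block, and 0 genes passed the adjusted threshold by edgeR (0%). An unadjusted p under 0.05 was found for 1046 genes (7.18%), and DESeq2 called 70. Nr2f2, an orphan nuclear receptor, had the lowest adjusted p. It measured 24.05, 144, 168 and 74.6 CPM in the spinal cord class and 23.2, 250.2, 421 and 352 CPM in mid/hindbrain (slope difference -0.54 ± 0.04 SE log2 per day, adjusted p = 0.0897, edgeR). The classes were level at day 6 and furthest apart at day 10. Of the 7 genes of Hox groups 4 and 5, 6 had an unadjusted p under 0.05 with the lower slope in the spinal cord class, against 3.74% of all genes. The lowest adjusted p among them was 0.228, of Hoxc4 and Hoxc5 (edgeR). The summed level of the 7 genes was 149, 185, 249.8 and 505 CPM in the spinal cord class and 8.74, 3.90, 15.8 and 134 CPM in mid/hindbrain.

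Glycolysis and hypoxia genes were mostly lower than in mid/hindbrain at day 6 and higher at day 10. Bnip3, a mitochondrial protein induced by low oxygen, measured 53.01, 8.26, 7.42 and 157 CPM in the spinal cord class and 91.9, 11.5, 9.80 and 70.1 CPM in mid/hindbrain (slope difference 0.50 ± 0.06 SE, adjusted p = 0.131, edgeR). Pgk1, a glycolytic enzyme, measured 695, 293, 227 and 899 CPM against 1059, 374, 271 and 619.7 (adjusted p = 0.123, edgeR). Ldha, which makes lactate, measured 1375, 274, 132 and 1275 CPM against 1708, 402, 122 and 809. In both classes all 3 were higher at days 6 and 10 than at days 7 and 8. Of the 12 listed genes, 11 had an unadjusted p under 0.05 with the higher slope in the spinal cord class, against 3.44% of all genes, and 0 passed the adjusted threshold (edgeR). Their median log2 ratio to mid/hindbrain was -0.35 at day 6 and 0.67 at day 10, with medians over all genes of 0.03 and 0.00. The 12 listed stress genes, also highest at day 6, summed to 1292, 458, 497 and 744 CPM in the spinal cord class and 1593, 597, 512 and 618 CPM in mid/hindbrain, and their part in these values was not tested.

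Markers of other cell types were low. The 9 neural crest genes, all in the table, summed to 20.1 to 38.5 CPM in the spinal cord class and 28.3 to 52.9 CPM in mid/hindbrain, and no thinned spinal cord cell had a UMI of Sox10. Of the 10 mesoderm genes, 9 were in the table and summed to 5.22 to 10.6 CPM. The 12 surface ectoderm genes summed to 56.3 CPM at day 6 and 6.30 to 16.1 CPM later. Of the 8 epiblast genes, 7 were in the table and summed to 21.5 CPM at day 6 and 1.74 to 3.41 CPM later. In mid/hindbrain the last pair of sums was higher at day 6, at 128 and 66.6 CPM. Their part in the day 6 values was not tested. Of the brain position genes, Egr2, a hindbrain segment marker, measured 5.05, 1.52, 0.581 and 0.170 CPM against 17.2, 34.4, 2.25 and 0.654, and Otx2, a forebrain and midbrain factor, did not exceed 1.96 CPM in the spinal cord class.

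Replicate 1 of elongated day 6, which the labels call batch 1, lies in the other deposited table, so that batch and table cannot be told apart between the replicates. There a spinal cord class was named separately and held 507 cells. Of the 31 genes above mid/hindbrain, 30 were in that table and 28 were at least 2-fold above its hindbrain and midbrain classes. Hoxb9 measured 380.0 CPM there, and Hoxc8, Hoxa9 and Hoxc9 measured 100.8, 18.6 and 42.8 CPM, each above the day 6 value of replicate 2. Aldh1a2 was close, with 26.6 CPM. Hoxd4 measured 0.529 CPM, against 29.8 CPM in replicate 2, while Hoxd3, with which it shares exon bases, measured 2.59 and 11.8 CPM. Nrp2 was lower than in hindbrain and midbrain cells there, with 14.8 against 23.9 CPM. Of the 7 genes below, 5 were at least 2-fold below. Epha7, with 11.4 against 21.0 CPM, and Col5a1, with 3.29 against 6.11 CPM, were lower by less than that. In the non-elongated library of that table, whose class held 177 cells, the counts were 22 of 30 above and 6 of 7 below. The share of all genes that far apart in that table was not taken, so these counts have no background beside them. The classes there were also named by the authors, and the counts are a description without a test.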

How the data were processed

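The deposited matrices hold whole-number UMI counts that the authors had not normalized. Reads were processed with Cell Ranger 3.1 and mouse build mm10, per the submitters' processing notes. How the authors filtered cells, treated doublets and named classes is not given in the sources used here. The authors' metadata also give UMI and gene counts per cell, which were checked and matched in all 11981 cells, and a mitochondrial percent per cell; the deposited class and barcode columns are names. In the other day 6 table, NENT was read from its initials as the non-elongated library and SENT as elongated replicate 1.

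UMIs were summed per library and class. The slope over day and the class by day term (library as block) were tested with edgeR 4.0.16 in R 4.3.3 (TMM, filterByExpr with a minimum count of 10, glmQLFit and glmQLFTest, Benjamini-Hochberg adjustment over all genes, threshold 0.05), with DESeq2 1.42.0 as an alternative. Adjusted p-values are edgeR's unless DESeq2 is named. The SE printed with a slope is its absolute size divided by the square root of edgeR's quasi-likelihood F statistic. The labels do not say that libraries come from separate cultures, so p-values measure the spread of these libraries about a line. Contrasts between classes are log2 ratios of CPM with 1 CPM added, for genes with at least 5 CPM in the mean of either class, and are not tested. Day 10 was set against day 6 for genes with a mean of at least 5 CPM in the spinal cord class. A gene that met this through day 6 or day 10 alone, where it is high, supports nothing in such a count. Both models were also run on simulated counts with a dispersion (spread beyond counting error) set at 0.05. The common dispersion in the data was 0.0432 for the slope and 0.0109 for the slope difference. No conclusion is drawn from the simulated counts. Coding of samples to days came from the labels. Promoter windows came from RefSeq (GRCm38.p6). Genes named are all listed Hox genes, list members, and the 10 highest and 10 lowest by ratio or slope with at least 20 CPM (5 and 5 for the slope difference), filled with uncalled genes of lowest p where fewer were called. The members and lists were chosen with earlier results of these data known.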

Additional observations from a re-analysis of the deposited data

How the results depend on the processing

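Of the 32 genes called for a slope over day, all that were tested under an alternative kept the sign of their slope there. The count of genes with a slope over day was 32 and became 894 with a minimum count of 1, 1 with a minimum of 100, 1150 with DESeq2, 1296 with the rank of day, 163 with cells thinned to 5000 UMIs and 1479 with replicate 1 of day 6 added as the fifth library; without 1 library at a time it ran from 7 to 769. The 32 genes were all called with DESeq2 and with the rank of day, and 24 of them with scaling by library size alone. Of those of the 32 that were tested, 1 of 15 was called with a minimum count of 100, 15 of 19 with thinned cells, 12 of 28 without day 6, 7 of 29 without day 7, 25 of 25 without day 8 and 20 of 25 without day 10. The count for the slope difference was 0 and became 57 with a minimum count of 1, 70 with DESeq2, 12 with the rank of day and 99 with thinned cells, and ran from 0 to 48 without 1 library at a time. It stayed at 0 with RLE size factors, library size alone and a minimum count of 100. The causes were not tested. Genes above and below mid/hindbrain in all libraries (31 and 7) became 50 and 48 at 1.5-fold, 13 and 0 at 4-fold and 19 and 1 with a pseudocount of 5 CPM, 2 were below with at least 20 CPM, and without 1 library at a time the counts ran from 33 to 51 and from 7 to 35. The 16 coding Hox genes above fell to 8 at 4-fold and 14 with the pseudocount of 5 CPM, and all 16 stayed without any 1 library. Genes at least 2-fold lower at day 10 than day 6 (444) became 294 with a pseudocount of 5 CPM and 671 with thinned cells. The share of spinal cord cells became 27.9% at day 8 and 18.1% at day 10 over spinal cord and mid/hindbrain cells. The share of cells with a UMI of Hoxb9 (53.4%, 25.6%, 49.0% and 29.4%) became 77.9%, 64.8% and 42.3% at days 6, 8 and 10 with cells at 10000 UMIs, and 93.1%, 45.3%, 77.7% and 51.8% without thinning. No paired analysis was possible because each day is 1 library and the days share fewer than 2 replicate numbers; the fit of the slope difference does pair the classes, with the library as a block. The class had the fewest cells and summed UMIs at day 7 (86 cells) and the lowest median depth per cell at day 10 (23243 UMIs).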

Other observations

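Among signalling genes not described above, some targets of fibroblast growth factor signalling were highest at day 6 in the spinal cord class. Etv4, a transcription factor induced by that pathway, measured 18.1, 0.435, 0.224 and 0.341 CPM over the days, against 4.82, 0.155, 0.120 and 0.654 CPM in mid/hindbrain. Etv5 measured 13.02, 0.435, 1.34 and 1.36 CPM against 9.62, 1.41, 1.18 and 1.45. Spry2, a feedback inhibitor, differed less between the classes at day 6, with 36.8, 6.52, 4.25 and 12.8 CPM against 33.1, 8.66, 11.9 and 13.6, and Fgf8 itself was lower than in mid/hindbrain at day 6, with 4.92 against 9.42 CPM. Of the 16 listed genes, 15 were in the table, 10 were tested over the days and 0 passed the adjusted threshold by edgeR, with 1 at an unadjusted p under 0.05 in each direction, against 13% rising and 14.3% falling over all genes. Of the cell cycle genes, Ccnd2, a cyclin, measured 769.7, 205, 229 and 301 CPM against 173, 224, 264 and 377, and Cdkn1c, a cyclin kinase inhibitor, 25.8, 1.09, 5.50 and 18.7 CPM against 1.82, 4.97, 2.10 and 3.75. Both were highest at day 6 in the spinal cord class, and in that class of replicate 1 they measured 1113 and 108 CPM.

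Notch genes were mostly higher at later days. Hes6 measured 20.5, 21.3, 49.98 and 96.4 CPM and the ligand Dll1 26.6, 39.8, 48.5 and 62.7 CPM in the spinal cord class, with adjusted p-values of 0.0615 and 0.0763 for the slope (edgeR). Jag1, another ligand, was lower in each later library, at 27.5, 20.7, 11.8 and 6.98 CPM. Of the 12 listed genes, 8 of the 10 compared were at least 2-fold higher at day 10 than at day 6 and 1 was at least 2-fold lower, beside 11.3% and 4.81% of all genes, and 0 of 11 were called over the days (edgeR), with 7 at an unadjusted p under 0.05 with a positive slope and 1 with a negative slope, against 13% and 14.3% of all genes tested. The hedgehog receptor gene Ptch1, which is also a target of that pathway, measured 51.2, 51.97, 51.5 and 39.7 CPM in the spinal cord class and 30.9, 28.01, 38.5 and 28.3 CPM in mid/hindbrain, so that the spinal cord class was higher in every library.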
